A study of Canis lupus familiaris with 5 samples.

Results

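Genes with a transient dip in iNSLCs were expressed in the starting fibroblasts and in the finished iPSCs of a dog. They were at a low level at the stage between, in neural stem cell-like cells (iNSLCs) induced from the fibroblasts. They were chosen by their measured levels. A gene model outside the mitochondrial genome was taken when it had at least 10 CPM (its count as a part of 1000000 counts of its library) in the fibroblast library and in each of the 3 iPSC libraries, and when its CPM in the iNSLC library was at most 1/3 of the lowest of these 4 values. This rule found 43 of 32220 gene models. A level of at least 10 CPM in fibroblasts and in every iPSC clone was met by 7033 gene models, so the dip genes were 0.611% of those that could have been chosen. Because these levels chose the members, the depth of the dip is given as a description and without a test.

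There were 5 RNA libraries, all from cells of 1 adult dog named K9. The fibroblasts were ear skin cells at passage 1. The iNSLC library came from cells at passage 2, which arose from fibroblasts transfected with episomal vectors (OCT4, SOX2, KLF4, L-MYC, LIN28, a dominant-negative mouse p53, EGFP, KLF2, NANOG, KDM4D and GLIS1) and grown in NSM, a medium first made for naive-state pluripotent cells. The iPSC group held 3 clones that emerged after culture in the embryonic stem cell medium ESM, 1 at passage 9 (iPSC 1) and the others at passage 8 (iPSC 2 and iPSC 3). Medium and passage differed with the stage, so their parts in any difference cannot be told apart from that of the stage. RNA was measured from whole cultures, in which fewer cells of a type and less RNA per cell cannot be told apart either.

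In reprogramming, introduced transcription factors switch off the programme of the somatic cell and switch on that of the pluripotent cell over many cell divisions. Fibroblasts make and organise the extracellular matrix of connective tissue, neural stem cells divide and give rise to neurons and glia, and pluripotent cells can form all tissues of the body. A gene that is on at both ends of this course and low in the middle is found in both the starting cell and the end point, though its level can differ between them. The files identify genes only by Ensembl dog IDs and do not pair them with symbols, and the table of dog gene names at hand matched 0 of them. For this reason the members are described by ID or position and by structure, and neither their functions nor the cell type markers of the 3 stages could be examined. Positions are those of CanFam3.1, and models given by position only were picked out after their values were seen.

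The iNSLC library was the shallowest, with 11699186 counts, and the others had 20021139 to 34317091. At 10 CPM a gene had 117 counts in the iNSLC library and between 200.2 and 343 in the others. The fibroblasts and the iNSLCs had 1 library each, and their values carry no replicate error. Intervals of iNSLC levels are exact Poisson intervals at 95% and cover counting error only.

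The dip genes together took 0.264% of the counts in fibroblasts (95% Clopper-Pearson interval 0.262 to 0.265%). In iNSLCs their share was 0.0338% (0.0328 to 0.0349%). It was 0.225% (0.223 to 0.227%) in iPSC 1 and 0.274% (0.272 to 0.276%) in iPSC 2. In iPSC 3 it was 0.214% (0.212 to 0.215%). The Clopper-Pearson intervals take each count as independent and cover counting error within a library only. If mates were counted one by one, the intervals are too narrow even for that. Because the members were chosen by these levels, the intervals are no test of a difference between stages. The median level of a member was 24.97 CPM in fibroblasts, 4.27 CPM in iNSLCs, and 31.6, 40.8 and 34.6 CPM in iPSC 1, iPSC 2 and iPSC 3. In CPM of the library total, the iPSC level of the group as a whole thus lay near that of the fibroblasts, which the rule did not require. The iPSC mean was 1.29 times the fibroblast level in the median member, against 1.43 times for all genes with the minimum level. Nearness is thus not particular to the members, and single members ran from 0.093 to 5.30 times. The iNSLC library lay apart from all others, as the rule required. How the iPSC level compares with that of the fibroblasts depends on the scaling, as described below.

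**Figure D1:**
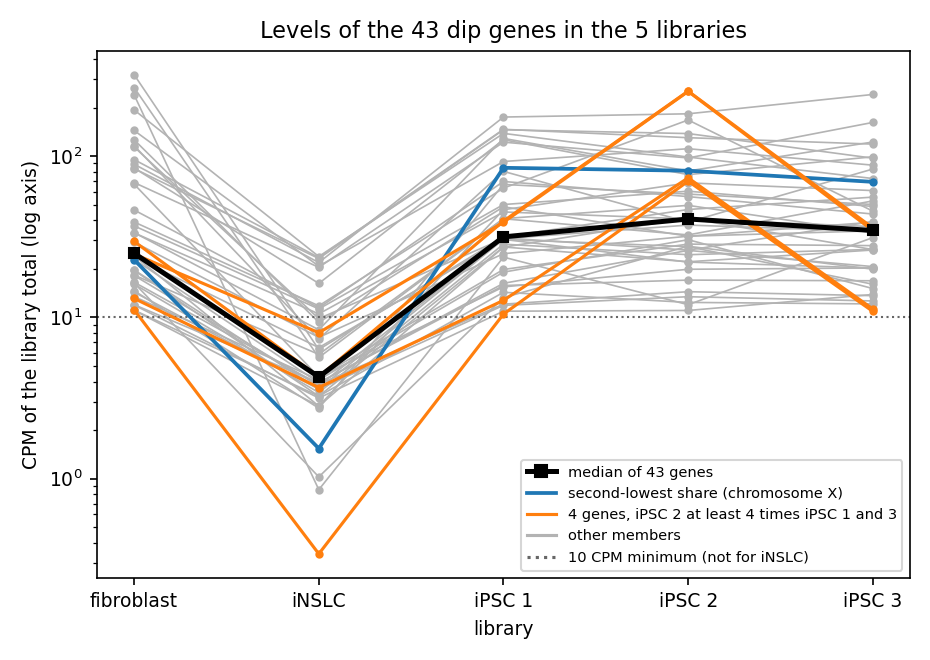
Levels of the 43 dip genes in the 5 libraries, as CPM of the library total on a log axis, with 1 line per gene and the median in black. The median is 24.97 CPM in fibroblasts, 4.27 CPM in iNSLCs and between 31.6 and 40.8 CPM in the iPSC clones. In 4 genes (orange) iPSC 2 stands at least 4 times above both other clones.

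The iNSLC level of the members was between 3.26% and 32.8% of the lowest other library, with a median of 25.5%. It was at most 20% for 10 members, between 20% and 25% for another 10, and above 25% for the remaining 23. In counts, the iNSLC library held from 4 to 279 for a member, with a median of 50, and fewer than 50 for 19 members. The upper end of the counting interval was still at most 1/3 of the lowest other library for 22 of the 43 members, and for 21 if counts are halved to allow for both mates of a read pair being counted. The members nearest to the threshold had 32.6%, 32.8% and 32.8%, and the first genes outside it had 33.4%, 34.0% and 34.1%. The group therefore has no gap at its edge, and about as many members lie within counting error of the threshold as lie clearly beyond it.

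The lowest share was found for ENSCAFG00000014484 (chromosome 9, 19715991 to 19731148), a model of 14 exons on the plus strand. It had 11.1 CPM in fibroblasts, 0.342 CPM in iNSLCs (4 counts, interval 0.0932 to 0.875 CPM), and 10.5, 69.9 and 10.9 CPM in iPSC 1, iPSC 2 and iPSC 3. Its iNSLC level was 3.26% of that in iPSC 1 (0.888 to 8.35%). This gene passed the minimum level narrowly in fibroblasts and in 2 of the clones, whereas iPSC 2 was far above all other libraries.

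The next lowest was ENSCAFG00000017705 (chromosome X, 75517407 to 75519218), a model with a single exon of 1812 bp. It had 22.8 CPM in fibroblasts, 1.54 CPM in iNSLCs (18 counts, interval 0.912 to 2.43 CPM), and 84.6, 81.2 and 69.2 CPM in the iPSC clones. Its iNSLC level was 6.76% of the fibroblast level (4.003 to 10.7%). Here the clones were close to each other, and all lay above the fibroblasts.

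The dip was measured against both ends. The iNSLC level was lower than the mean of the iPSC clones by a median of 6.22-fold (interquartile range 4.33 to 9.15) and lower than the fibroblasts by a median of 4.70-fold (3.63 to 8.33). For 30 members the distance to the iPSC mean was the larger and for 13 that to the fibroblasts. A distance of at least 10-fold was reached by 10 members against the iPSC mean, by 10 against the fibroblasts, and by 4 against both. The 7033 genes with the minimum level had medians of 1.31-fold against the iPSC mean (interquartile range 0.89 to 1.86) and 0.93-fold against the fibroblasts (0.66 to 1.34). In these medians, genes higher in iNSLCs and genes lower there offset each other. The fibroblast library was the lowest of the other 4 for 22 members, iPSC 1 for 11, and iPSC 2 and iPSC 3 for 5 each. iPSC 1 was thus the lowest for 25.6% of the members, against 6.17% of the 7033 genes. Those members include the nested models on chromosome 18 described below, which share a location and are not separate observations. The lowest of the other 4 values was also used by the rule, so this share is a description only. The iNSLC library and iPSC 1 carry the same number in their labels (K9_1), but the labels do not say whether the clone came from that iNSLC culture, and the part of this in the result was not tested.

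**Figure D2:**
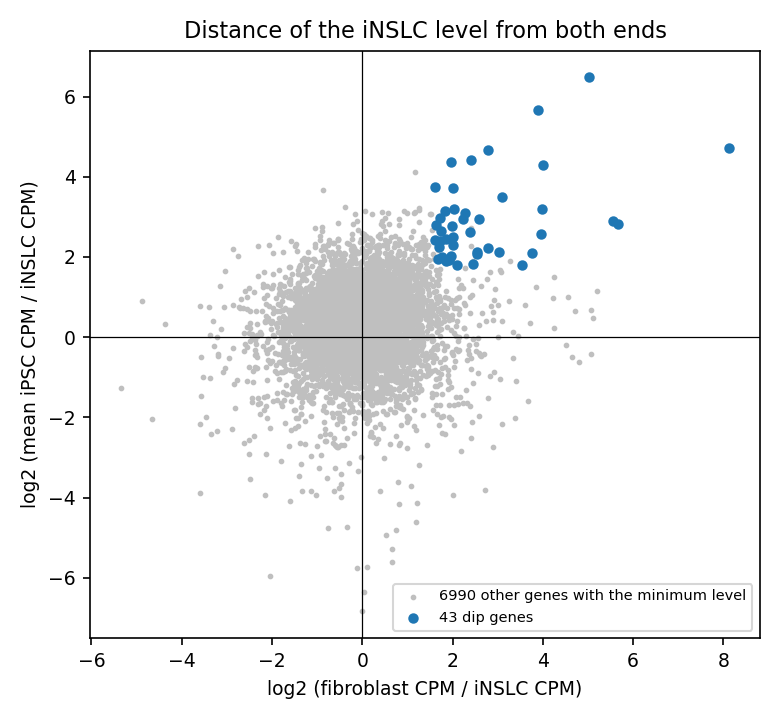
Distance of the iNSLC level from both ends, as log2 of fibroblast over iNSLC CPM (x axis) and log2 of mean iPSC over iNSLC CPM (y axis), for 43 dip genes (blue) and 6990 other genes with the minimum level (grey). The dip genes occupy the upper right by construction, with medians of 4.70-fold and 6.22-fold, and the cloud of other genes is continuous with them.

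At any depth of difference, the iNSLC library was below all others for 1686 of the 7033 genes (23.97%) and above all others for 820 (11.7%). The opposite pattern, an iNSLC level of at least 3 times the highest other library, was met by 22 of the 7033 genes (0.313%). The 7033 genes have a minimum of 10 CPM in fibroblasts and every clone, but none in iNSLCs. Genes high in iNSLCs but under 10 CPM in another library were thus left out. The counts of genes below and above the other libraries are therefore not like for like. Grouped by the lowest other library, dip genes were most frequent next to the minimum of 10 CPM. They made up 0.989% of genes whose lowest other library had 10 to 20 CPM (20 of 2022), 0.579% at 20 to 50 CPM (16 of 2762) and 0.515% at 50 to 100 CPM (7 of 1359), and there was 0 among the 890 genes above 100 CPM.

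The choice of members depended on the scaling. With CPM normalized by the trimmed mean of M values (TMM), which corrects each library for a few very abundant genes, the rule found 58 genes, of which 33 were among the 43. Of the 10 members that were lost, 8 no longer reached the depth of 1/3 and 2 fell under 10 CPM, among them ENSCAFG00000014484, which has 9.58 CPM in iPSC 1 on that scale. Leaving out a clone only relaxes the rule and so keeps all members by construction. It added 6 genes when iPSC 1 was left out, 7 when iPSC 2 was and 8 when iPSC 3 was.

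The iPSC clones were not at the same level for every member. The highest clone was 1.505 times the lowest in the median (interquartile range 1.25 to 1.83), where all 7033 genes had 1.42 (1.25 to 1.70). The clones were within 1.5-fold of each other for 20 members, or 46.5%, and for 59.2% of all 7033 genes. iPSC 2 was the highest clone for 18 members, 41.9% against 26.1% of the 7033 genes. It was at least 2 times above both other clones for 5 members, against 78 of the 7033 genes (11.6% and 1.11%), and at least 4 times above both for 4 members, against 17 genes (9.30% and 0.242%). Since the rule takes the lowest clone, a single high clone cannot make a gene a member. No test was made of these shares, as genes are not replicates and each clone is 1 library.

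In the 4 genes with at least 4 times as much in iPSC 2, that clone was the highest library and the iNSLCs the lowest. Apart from ENSCAFG00000014484, the model on chromosome 15 at 30322404 to 30326508 had 29.6 CPM in fibroblasts, 4.27 CPM in iNSLCs, and 39.5, 252.7 and 35.9 CPM in iPSC 1, iPSC 2 and iPSC 3. The model on chromosome 20 at 48624463 to 48641035 had 24.7 CPM in fibroblasts, 8.03 CPM in iNSLCs, and 38.9, 251.9 and 34.6 CPM in the clones. The model on chromosome 27 at 42506760 to 42601760 had 13.1 CPM in fibroblasts, 3.68 CPM in iNSLCs, and 12.8, 73.3 and 11.3 CPM in the clones. In each, iPSC 1 and iPSC 3 lay nearer to the fibroblasts than to iPSC 2, and iPSC 2 was between 5.75 and 6.48 times the higher of them. They lie on 4 different chromosomes. A member on chromosome 34 (18729598 to 18788313) showed a smaller excess of iPSC 2, 2.64 times the higher other clone, at 63.3, 167 and 45.6 CPM in iPSC 1, iPSC 2 and iPSC 3.

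**Figure D3:**
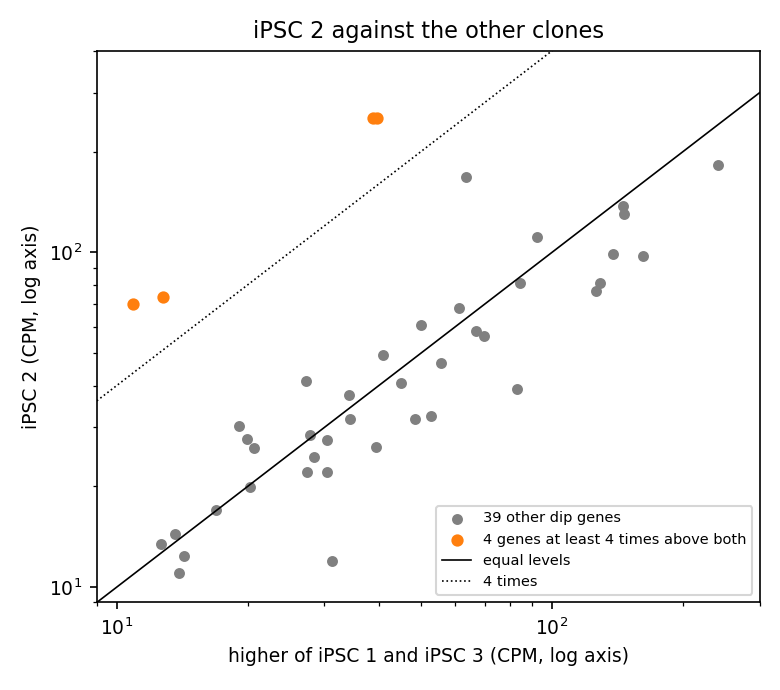
Level of the 43 dip genes in iPSC 2 (y axis) against the higher of iPSC 1 and iPSC 3 (x axis), in CPM on log axes. The 4 genes in orange lie above the dotted line of 4 times, at 5.75 to 6.48 times, and the other 39 lie below that line, with the highest of them at 2.64 times.

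The rule did not use the ratio of iPSCs to fibroblasts, apart from the minimum level in both. This comparison asked whether the level in iPSCs was that of the starting cells. It was tested for all genes with the quasi-likelihood test of edgeR with all 5 libraries fitted together as 3 groups, with TMM scaling and Benjamini-Hochberg adjustment over 17479 genes. Only the iPSC clones gave an estimate of the spread (2 residual degrees of freedom), and the single fibroblast library was taken to vary as they do. All clones derive from 1 dog, and the p-values therefore reflect differences among clones of that animal. All 43 members were tested.

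Of the 43 members, 3 were higher and 8 lower in iPSCs than in fibroblasts (edgeR adjusted p under 0.05), and 32 were not called. Over all genes tested 13.7% were called higher and 14.3% lower, together 28.0%. The called share was 25.6% of the members, against 23.6% of the 7033 genes with the minimum level (9.40% higher and 14.2% lower). This is near the background and not a result particular to the dip genes. The median log2 fold change was -0.14 for the members, 0.00 for the 7033 genes and 0.27 for all genes tested. In CPM of the library total, the iPSC mean was within 2-fold of the fibroblasts for 26 members, more than 2-fold above for 11 and under 1/2 for 6, a share of 60.5% within 2-fold for the members and 57.9% for the 7033 genes. A missed threshold does not show that the levels of a gene were equal.

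The values that follow are TMM-normalized CPM. Among the lower members, ENSCAFG00000017326 (chromosome 20, 49830532 to 49837477, 7 exons) had 21.6, 10.7 and 28.9 CPM in iPSC 1, iPSC 2 and iPSC 3, against 311 CPM in fibroblasts. The change on the log2 scale was -3.93 ± 0.503 (standard error, edgeR adjusted p = 0.00444). In iNSLCs it had 0.872 CPM, from 10 counts, and all 3 clones lay below the fibroblast level. ENSCAFG00000008902 (chromosome 23, 50952098 to 50958816, 3 exons) had 28.8, 41.6 and 51.6 CPM in the iPSC clones, against 415 CPM in fibroblasts, with a log2 fold change of -3.35 and a standard error of 0.360 (edgeR adjusted p = 0.00280). Its iNSLC level was 6.45 CPM. A further member with a change of this size lies on chromosome 5 (58058240 to 58146134, 39 exons), with a log2 fold change of -3.17. It had 37.4, 28.9 and 48.9 CPM in the clones, against 346 CPM in fibroblasts. In these 3 members every iPSC clone was far below the fibroblasts. That the clones lie above the iNSLCs was set by the rule for all members.

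Among the higher members, ENSCAFG00000004636 (chromosome 1, 110574102 to 110585035, 16 exons) had 42.5, 60.8 and 56.7 CPM in the iPSC clones, against 14.4 CPM in fibroblasts and 2.88 CPM in iNSLCs. The change on the log2 scale was 1.89 ± 0.430 (standard error, edgeR adjusted p = 0.0243). ENSCAFG00000020429 (chromosome 6, 76848106 to 76866948, 13 exons) had 61.0, 51.8 and 46.4 CPM in the iPSC clones, against 19.0 CPM in fibroblasts and 2.79 CPM in iNSLCs, with a log2 fold change of 1.48 and a standard error of 0.395 (edgeR adjusted p = 0.0385). The other higher member was ENSCAFG00000017705, described above, with a log2 fold change of 1.27 (edgeR adjusted p = 0.0448). All clones lay above the fibroblasts in these genes.

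More of the lower calls than of the higher ones held in every refit. The 6 members with the most negative log2 fold changes, from -3.93 to -1.91, were called in each of the 8 refits with another scaling, test or filter, with halved counts, or without 1 clone. The other 2, at -1.42 and -1.08, were not called with library size as the only scaling (edgeR adjusted p = 0.126 and 0.177) or without iPSC 3 (0.0763 and 0.0771), and the member at -1.08 was also not called without iPSC 1 (0.158). Each of the 3 higher members lost its call in at least 1 refit. Without iPSC 3 the edgeR adjusted p was 0.0628 for ENSCAFG00000004636 and 0.0522 for ENSCAFG00000017705, and without iPSC 1 it was 0.107 for ENSCAFG00000020429 and 0.127 for ENSCAFG00000017705, which was also not called with no filter on low counts (0.0527).

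**Figure D4:**
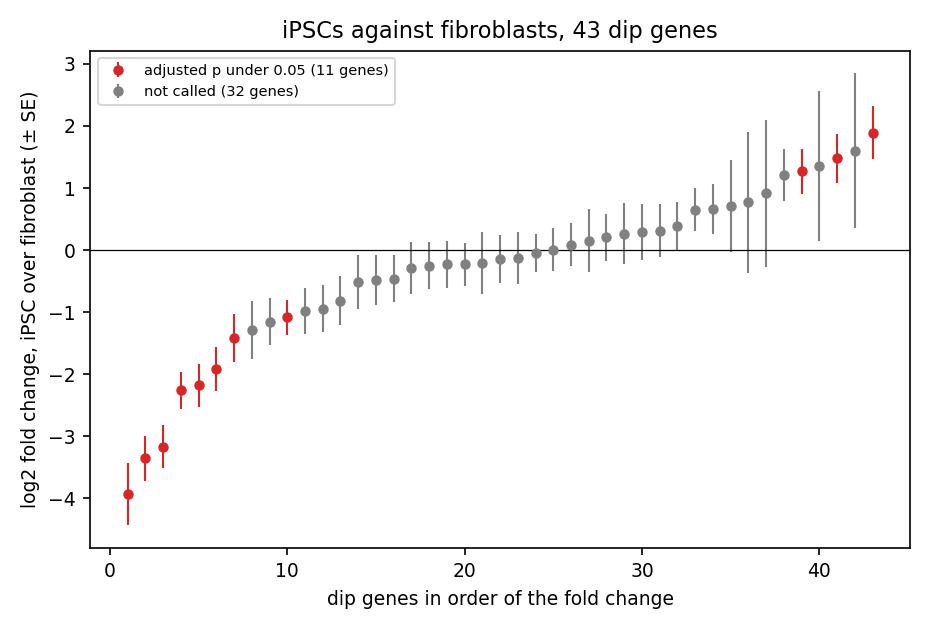
Log2 fold change of iPSCs over fibroblasts for the 43 dip genes in order of size, with standard errors from the edgeR fit of all genes. The 11 called genes (red) run from -3.93 to 1.89, 8 of them below 0, and the 32 others (grey) straddle 0, with the widest errors in the genes where iPSC 2 was high.

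For the 4 genes with high iPSC 2 the fold change rested on that clone. Their log2 fold changes lay between 0.77 and 1.60 with all clones (edgeR adjusted p = 0.360 to 0.628) and between -0.58 and 0.12 without iPSC 2 (edgeR adjusted p = 0.451 to 0.904). With TMM-normalized CPM, all clones were above the fibroblasts for 7 members (16.3%, against 38.2% of the 7033 genes) and all below for 19 (44.2%, against 40.4%). These counts changed with the scaling. In CPM of the library total all clones were above for 22 members (51.2%, against 57.4%) and below for 13 (30.2%, against 24.7%). The number of members with a positive log2 fold change was 19 with TMM and 30 with library size only, while the median of the members moved from -0.14 to 0.37 and that of all genes from 0.27 to 0.78.

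The structure of the gene models played no part in the rule. Members had a summed exon length of 2895 bp in the median (interquartile range 1937 to 4234.5 bp), and the 7033 genes 2856 bp (1542 to 4710 bp). Their median number of exons was 11, as in the 7033 genes, and the median span on the chromosome was 22666 bp, against 25958 bp. Single-exon models were 4 of the 43 members, or 9.30%, and 191 of the 7033 genes, or 2.72%, but 2 of the 4 lie in the same intron, so that they stand for 3 locations. The longest model, on chromosome 20 (40519496 to 40549992), had 118 exons and 8811 bp. It had 116 CPM in fibroblasts, 7.35 CPM in iNSLCs, and 80.4, 39.01 and 83.1 CPM in the iPSC clones. The members thus ran over a wide range of sizes, from 155 bp to 8811 bp.

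Members were spread over 23 of the 39 chromosomes that held a gene with the minimum level, with at most 4 on one. Chromosome 20 had 4 members among 369 such genes and chromosome 25 had 4 among 135. The nearest genes with the minimum level on either side of the members were 84 genes, 2 of them members themselves. They had an iNSLC level of 119.8% of their lowest other library in the median, against 138% for the 7033 genes, and 3 of them (3.57%, against 2.33%) were at or below 50%, all at the same place on chromosome 18. Only 7 members lay within 200 kb of another one, in 3 places, so the 43 genes stand for 39 separate locations.

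The closest group was on chromosome 18. A model of 2 exons on the minus strand (51658592 to 51769382) spans several others, and 2 members of a single exon, 159 bp (51767750 to 51767908) and 155 bp (51768109 to 51768263) long, lie in its intron on the same strand. The spanning model had 11.9 CPM in fibroblasts, 3.16 CPM in iNSLCs, and 10.9, 11.04 and 13.9 CPM in the iPSC clones. The model of 159 bp had 24.97 CPM in fibroblasts, 4.27 CPM in iNSLCs, and 15.5, 19.9 and 20.3 CPM in the clones. The model of 155 bp had 22.9 CPM in fibroblasts, 3.93 CPM in iNSLCs, and 15.8, 17.0 and 16.9 CPM in the clones. These 3 models had nearly the same profile, at 24.9 to 28.9% of the lowest other library. A further single-exon model of 117 bp beside them (51768480 to 51768596) missed the rule at 38.3%. Its levels were 22.4 CPM in fibroblasts, 6.92 CPM in iNSLCs, and 18.1, 19.6 and 24.2 CPM in the clones, and with the models of 159 and 155 bp it made up the 3 neighbours at or below 50%. The remaining models at the locus had at least 72.9% of their lowest other library in iNSLCs. A model of 17 exons (51667790 to 51681152) had 39.5 CPM in fibroblasts, 45.6 CPM in iNSLCs, and 41.5, 41.7 and 49.98 CPM in the clones. Since the dip models share a strand and a location, they are counted as 1 location and not as separate observations of the dip.

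**Figure D5:**
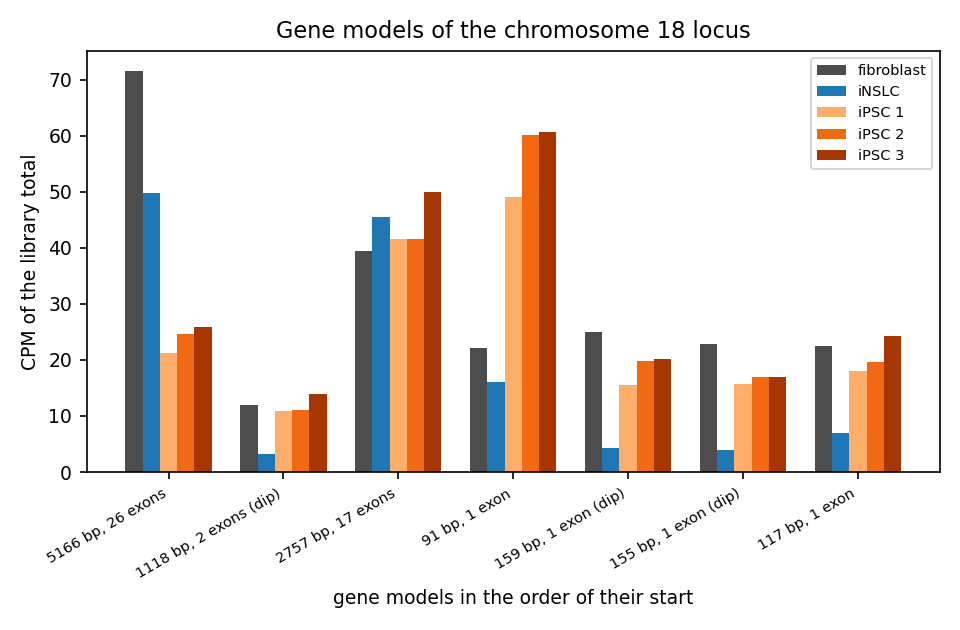
Levels of the 7 gene models of the chromosome 18 locus in CPM of the library total, with 1 bar per library (no replicate error for fibroblasts and iNSLCs). The 3 dip models and the 117 bp model are lowest in iNSLCs at 3.16 to 6.92 CPM, whereas the model of 17 exons has 45.6 CPM there.

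The other places were pairs. On chromosome 12 a model of 22 exons (66350607 to 66358367) had 68.6 CPM in fibroblasts, 20.4 CPM in iNSLCs, and 122, 97.4 and 162 CPM in the iPSC clones. Its partner of 7 exons (66316425 to 66342946) had 11.1 CPM in fibroblasts, 3.25 CPM in iNSLCs, and 14.3, 12.4 and 12.1 CPM in the clones. The gene between them, on the opposite strand, had 26.8 CPM in fibroblasts, 24.4 CPM in iNSLCs, and 60.5, 74.2 and 94.6 CPM in the clones. On chromosome 36 the members at 14256324 to 14298579 and 14401508 to 14402233 had 2 models between them, neither of which met the rule. The first had 95.5 CPM in fibroblasts, 105 CPM in iNSLCs, and 394, 377 and 637 CPM in the iPSC clones, and the other had 1.74 CPM in fibroblasts, 2.65 CPM in iNSLCs, and 15.97, 18.6 and 29.6 CPM in the clones. Exons of 5 members overlapped those of another model, 4 of them with a model on the opposite strand. No source used here gives the strand setting of the counting, and reads of such overlapping models cannot be told apart.

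No other iNSLC culture of this dog was compared, so the spread of the dip between cultures was not measured. The labels do not link the clones to the sequenced iNSLC culture, so a fall and rise in the same cells was not followed.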

How the data were processed

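RNA-seq counts per gene model were deposited by the authors for 5 libraries and used as raw counts. Per the labels and the submitters' processing notes, reads were trimmed with Trim Galore 0.4.0, aligned to CanFam3.1 with STAR 2.5.3a and counted with featureCounts 1.5.2. No source used here gives the strand setting, the use of read mates or the treatment of multiply mapped reads. The deposited count table also holds exon positions and the summed exon length, in bp, of each of 32220 gene models. Its counts were identical to those of the single-library files. Totals ranged from 11699186 to 34317091 counts, and 3 counts equal 0.0874 to 0.256 CPM.

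Counts were divided by the column total to give CPM, and the rule of at least 10 CPM and at most 1/3 was applied to them. The members and the gene lists were chosen with earlier results of these data known. For the comparison of iPSCs with fibroblasts, edgeR 4.0.16 (R 4.3.3) was used with filterByExpr, TMM scaling, the quasi-likelihood test in 1 fit of 3 groups, and Benjamini-Hochberg adjustment at 0.05. Standard errors were taken as the absolute log2 fold change over the root of F. TMM factors were 0.770 for fibroblasts, 0.980 for iNSLCs and 1.09, 1.12 and 1.08 for the iPSC clones. The fit was tested on simulated data. No test was made with the iNSLC library.

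Models were named by ID if they were the 2 members with the lowest share, or the 2 called higher and the 2 called lower with the largest change between iPSCs and fibroblasts. As 0 IDs could be matched to symbols, 14 gene lists were not analysed here, and no sequence is shown. The alternatives were DESeq2 1.42.0 (size factors or Wald test), library size only, no filter, halved counts, an adjusted p under 0.01, each clone left out, and other scalings, minimum levels and depths for the rule.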

Additional observations from a re-analysis of the deposited data

How the results depend on the processing

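No paired analysis was possible because the groups compared share fewer than 2 replicate numbers. With other settings of the rule, 68 genes were found at a minimum of 5 CPM, 23 at 20 CPM, 164 at a depth of 1/2, 20 at 1/4, 10 at 1/5, and 22 when the upper Poisson bound had to stay within 1/3. The median share of the lowest other library was then 40.6% at 1/2, 19.4% at 1/4, 13.1% at 1/5 and 20.4% with the Poisson bound. Without 1 iPSC clone 49 to 51 genes were found. For iPSCs against fibroblasts over all genes, edgeR called 4895 (2387 higher, 2508 lower). Scaled by library size alone it called 3861 higher, 68.1% of the calls against 48.8% with TMM, and 5 members higher. At an adjusted p under 0.01 it called 1726 genes (642 higher, 1084 lower) and 5 members (0 higher, 5 lower). Without 1 clone the calls ranged from 2779 to 6906 (1260 to 3636 higher, 1519 to 3270 lower). Among members they ranged from 7 to 12 (1 to 4 higher, 6 to 8 lower). The lowest totals were those without iPSC 3 (2779 genes and 7 members). The number of members called higher was 1 without iPSC 1 and 1 without iPSC 3. Without iPSC 2 the log2 fold change, called in no refit, turned from 0.91 to -0.51 for ENSCAFG00000014484, from 1.35 to -0.10 for the model on chromosome 15 and from 0.77 to -0.58 for that on chromosome 27, and without 1 of the other clones these reached 1.38, 1.81 and 1.22. With library size only the members' median turned from -0.14 to 0.37. The 11 called members kept their direction in every refit. Depth limits the iNSLC values, since 19 members had fewer than 50 counts there. The fibroblasts and iNSLCs had 1 library each, so the spread within these stages is unknown.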

Other observations

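Mitochondrial gene models were left out by the rule. Of 37 such models, 16 had at least 10 CPM in fibroblasts and in every iPSC clone. In iNSLCs, 0 of these 16 were at or below 1/3 of the lowest other library. Outside the mitochondrial genome, only 0.611% of the genes with this minimum level were dip genes. With so low a share, 16 models are too few to show whether mitochondrial models differ. Even counts were more frequent in the iNSLC library than in the others. Among gene models with 1 to 10 counts, 74.0% had an even count in iNSLCs, against 64.0% in fibroblasts and 59.6 to 61.6% in the iPSC clones. Of the 43 dip genes, 29 had an even count in iNSLCs, against 20 in fibroblasts and 21, 21 and 24 in the iPSC clones.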
